A study of Mus musculus with 10 samples.

Results

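The genes described here are the splicing regulators and neuronal RNA-binding proteins of the mouse, taken as all protein-coding genes whose symbol belongs to the Srsf, Hnrnp, Rbfox, Celf, Nova, Elavl, Mbnl, Ptbp, Khdrbs and Srrm families or is Qk. Of the 54838 gene identifiers in the files, 60 met this rule, and 59 of them were expressed highly enough to be tested. They were divided by role into 37 core factors, which nearly every cell uses (11 SR proteins, 20 hnRNP proteins and 6 companions), 18 neuronal factors and 5 factors known for regulation between tissues (Mbnl1, Mbnl2, Mbnl3, Celf1 and Qk). The one gene left untested was Mbnl3, at 0 to 0.42 CPM, a gene's count as a part of the TMM-scaled counts on all genes of the library.

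The libraries were made by translating ribosome affinity purification (TRAP), in which ribosomes carrying an EGFP-tagged L10a protein are precipitated with the mRNA they hold. All 10 libraries came from Drd2-Cre;Eef1a1LSL.eGFPL10a/+ mice on the C57BL/6 strain, males of about 10 weeks, and no control genotype or whole-tissue input was used here. The 5 Dorsal libraries came from the hippocampus nearest its dorsal pole, the third of the structure on that side, and the 5 Ventral libraries from the remainder without its ventral subicular pole, each library being the pooled tissue of 5 mice, so that a replicate is a pool. The Drd2-Cre transgene switches on the tag mainly in hilar mossy cells, the excitatory neurons of the dentate hilus. It also does so in sparse interneurons and some ventral subicular neurons, which makes the precipitates enriched and not pure.

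Splicing regulators bind short sequences in the precursor mRNA and decide which exons are joined. SR proteins mostly sit on exons and help the spliceosome to use nearby splice sites, whereas hnRNP proteins coat the nascent transcript and often keep exons out. Neurons add factors of their own. Rbfox proteins bind UGCAUG, Nova proteins set the exons of many synaptic genes, Ptbp2 takes the place of Ptbp1 during neuronal differentiation, Srrm4 drives the inclusion of very short exons, and the neuronal Elavl (Hu) proteins bind AU-rich stretches and also stabilise mRNAs in the cytoplasm. The measurements are of the mRNAs of these regulators on tagged ribosomes. They contain no exon usage.

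Counts on genes ranged from 11138676 to 20594364 per library. The share of read pairs that fell on no gene was 27.0 ± 5.09% (SD, n = 5) in dorsal and 14.4 ± 3.0% (n = 5) in ventral libraries, without overlap (exact permutation test, two-sided, p = 0.00794), and this measure and the region therefore cannot be told apart. The 9 mossy cell markers summed to 529 to 597 CPM in dorsal libraries and 1155 to 1400 CPM in ventral ones. Drd2 was at 23.4 to 31.8 CPM in dorsal libraries and 17.6 to 28.0 CPM in ventral ones, and Calb2 (calretinin) at 49.7 to 73.9 CPM and 529 to 726 CPM. Calb2, Satb1 (means of 270 and 450 CPM) and Cda were called ventral-enriched, and 0 markers dorsal-enriched. Of the 7 tested markers 2 had estimates above 0. Without a whole-tissue input, these levels do not show enrichment. Csf2rb2 and Glipr1, of the 9 mossy cell markers, were too low to be tested. Markers of other cells were also present. Summed over 8 oligodendrocyte markers the level was 2455 to 2922 CPM in dorsal libraries and 911 to 1748 CPM in ventral ones, over 8 astrocyte markers 1980 to 2249 CPM and 857 to 1457 CPM, and over 5 nuclear-retained RNAs 13291 to 26666 CPM and 2476 to 5105 CPM. The 5 general neuronal markers summed to 14722 to 19232 CPM in dorsal libraries and 19497 to 23157 CPM in ventral ones, a sum made up mostly of Snap25, and were split between Tubb3, called ventral-enriched, and Map2, called dorsal-enriched. The 8 interneuron markers summed to 3268 to 4363 CPM and 3951 to 5191 CPM, with 0 of 8 estimates above 0 and 3 ventral calls (Sst, Pvalb and Lhx6), and the part of these cells in the ventral calls was not tested. In such pooled precipitates, fewer cells of a type and less RNA per cell cannot be told apart.

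Most of these genes had small estimated differences between dorsal and ventral libraries. A gene was called enriched when edgeR's quasi-likelihood test gave an adjusted p below 0.05 and the log2 ratio of mean CPM plus 1 exceeded 0.58 in size. By this rule 6 of the 59 tested members (10.2%) were called, against 21.6% of all 16806 tested genes and 16.8% of tested protein-coding genes above 20 CPM. Only Qk was called dorsal-enriched (background 13.2%), and Elavl4, Celf6, Hnrnpa0, Hnrnpk and Khdrbs1 were called ventral-enriched (background 8.38%). The adjusted p alone was below 0.05 for 15 members (25.4%), 8 of them higher in dorsal and 7 higher in ventral libraries, against 28.5% of all tested genes. When the share of read pairs on no gene was added as a covariate, none of the 6 kept its call (Celf2 and Srrm4 were called dorsal-enriched instead), and the calls over all genes went from 2217 dorsal and 1408 ventral to 620 and 248. The estimate was smaller than 0.58 in size for 52 of the 59 (88.1%), compared with 59% of all tested genes and 81.1% of protein-coding genes above 20 CPM. The median log2 fold change was -0.04 over the members and -0.01 over all tested genes. With an interval of 2 standard errors, 36 members lay wholly inside ±0.58, while for the others the interval reached past that limit.

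**Figure D1:**
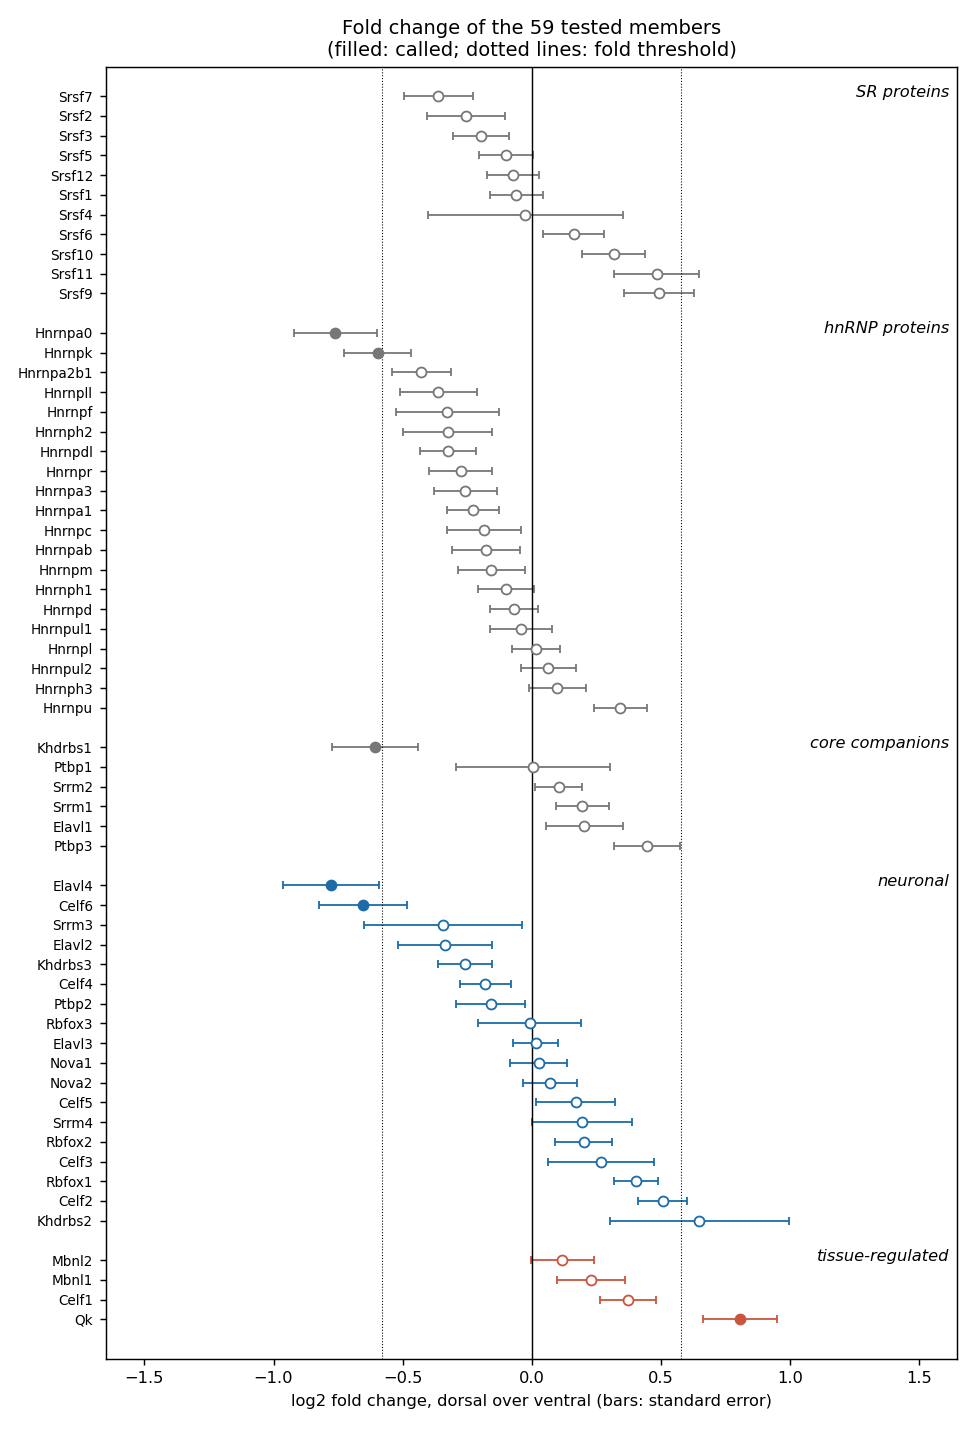
The plot gives, for each of the 59 tested members, the log2 fold change of dorsal over ventral libraries on the horizontal axis with its standard error as a bar (5 libraries per group), in blocks by role, with filled points for called genes and dotted lines at the fold threshold of 0.58. Most points lie between the dotted lines, Qk stands to the right, and Elavl4, Celf6, Hnrnpa0, Hnrnpk and Khdrbs1 stand to the left.

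Neither core nor neuronal factors held a dorsal call. Of the 37 core factors 3 were ventral calls (8.11%, against 8.38% of all tested genes) and 0 dorsal calls, and their median log2 fold change was -0.10. Of the 18 neuronal factors 2 were ventral calls (11.1%) and 0 dorsal calls, and their median was 0.02. Dorsal calls made up 13.2% of all tested genes and 7.79% of tested protein-coding genes above 20 CPM, so their lack says little about lists of this size. The 4 tested tissue-regulated genes held the 1 dorsal call and had a median of 0.30. DESeq2 also called 0 core and 0 neuronal genes in the dorsal direction. In edgeR's test the adjusted p alone was below 0.05 in that direction for 4 core and 2 neuronal genes, and the unadjusted p for 5 and 2. The summed level of the neuronal factors divided by that of the core factors was 0.815 ± 0.042 (SD, n = 5) in dorsal and 0.732 ± 0.031 (n = 5) in ventral libraries, a description with no test. Dorsal replicate 2 (0.746) lay inside the ventral range of 0.697 to 0.780, and the other dorsal libraries lay above it, up to 0.848. Abundant genes weigh most in these sums, so the ratio does not show a shift of the class as a whole. Celf2 alone made up 1274 of the mean neuronal sum of 5160 CPM in dorsal libraries. In ventral libraries it made up 896 of 5034 CPM. Neuronal genes were spread over far longer stretches of the genome, with a median span of 149 kb against 13.7 kb for core genes and 26.6 kb for all tested protein-coding genes, and their exons had a median GC content of 52.0% against 45.7% for core genes.

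Most hnRNP estimates lay on the ventral side. Of the 20 genes 16 had estimates below 0, against 3698 of 6559 tested protein-coding genes above 20 CPM. Ventral calls were 2 (10%, near the 8.38% of all tested genes), and none was a dorsal call (1 had an unadjusted p below 0.05 in that direction, and DESeq2 made 0 dorsal calls). The log2 fold changes had a median of -0.21, against -0.07 for all tested protein-coding genes above 20 CPM. Their summed level was 3589 to 4492 CPM in dorsal libraries and 4212 to 5393 CPM in ventral ones, so that the groups overlapped. The 2 called hnRNP genes both lie on chromosome 13 (GRCm38), Hnrnpa0 (ENSMUSG00000007836, chr13:58125879-58128556, minus strand), whose product binds AU-rich RNA, and Hnrnpk (ENSMUSG00000021546, chr13:58391142-58403343, minus strand), whose product binds C-rich RNA through KH domains.

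Both genes have 1 promoter each in the RefSeq promoter table (build GRCm38.p6, minus strand). Windows are shown for called members with 1 listed promoter, where part of the window lies outside annotated exons. The Qk window lies in an annotated exon and is not shown. Capitals mark GGGCGG (the GC box) or CCAAT (the CCAAT box) on either strand, and ATTGG is CCAAT read on the other strand. The Hnrnpa0 window is the 250 bases before the start, chr13:58128557-58128806, and the Hnrnpk window is the 105 bases, chr13:58402143-58402247, of its window that no annotated exon covers. The RefSeq start used for Hnrnpk lies inside the gene's annotated span, since longer transcripts begin further upstream.
Hnrnpa0: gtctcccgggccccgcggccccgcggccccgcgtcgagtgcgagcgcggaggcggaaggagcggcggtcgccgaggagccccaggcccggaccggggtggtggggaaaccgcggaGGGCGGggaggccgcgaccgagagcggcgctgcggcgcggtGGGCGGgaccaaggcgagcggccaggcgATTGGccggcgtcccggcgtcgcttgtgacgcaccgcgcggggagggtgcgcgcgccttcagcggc
Hnrnpk: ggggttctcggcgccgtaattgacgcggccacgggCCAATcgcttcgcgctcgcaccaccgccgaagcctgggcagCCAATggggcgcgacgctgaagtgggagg

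The Hnrnpa0 window held 2 GC boxes, 135 and 94 bases before the start, and 1 CCAAT box on the other strand, and the Hnrnpk window held 2 CCAAT boxes, 95 and 54 bases before the start. Promoters of 53 of the 60 genes were in the table. Over windows of 250 bases, GGGCGG occurred on either strand in 73.9% of 46 promoters of core genes, 46.2% of 39 promoters of neuronal genes and 32.7% of all 32817 promoters. The core promoters belong to 33 genes and the neuronal ones to 15, so genes with more than 1 listed promoter count more than once. CCAAT occurred in 50.0%, 46.2% and 33.8%. The TATA box (TATAAA) occurred in 6.52%, 10.3% and 12.4%. The median number of CG dinucleotides per window was 24 for core genes, 10 for neuronal genes and 6 over all promoters. These matches are letters in a window and were not tied to the binding of any factor.

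Hnrnpa0 stood at 343, 224, 190, 251 and 242 CPM in the dorsal libraries and at 567, 428, 379, 394 and 349 CPM in the ventral libraries. Every ventral library lay above every dorsal one. Such a separation was found for 8 of the 59 members, 2 with ventral above dorsal (8.36% of all tested genes) and 6 with dorsal above ventral (9.81%), against 18.2% of all tested genes in both directions. The log2 fold change was -0.76 ± 0.16 (SE, adjusted p = 0.00448, edgeR quasi-likelihood). Hnrnpk stood at 240, 209, 223, 235 and 236 CPM in dorsal libraries and 444, 396, 272, 329 and 288 CPM in ventral ones, again without overlap and with a wider spread on the ventral side. Its log2 fold change was -0.60 ± 0.13 (adjusted p = 0.00498). The log2 ratio used for the fold threshold was -0.59, just past the limit, and the call was lost with DESeq2 or its size factors, with library totals, with the stricter filter and with protein-coding genes alone (-0.58 to -0.57), and without Dorsal replicate 2 or 3 or Ventral replicate 1 or 2 (-0.58 to -0.49). Of the 50-base windows in Hnrnpk transcripts 17.8% also occur in other genes, so that its reads may be divided among copies.

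Hnrnpa2b1, which carries mRNAs along dendrites and is the most abundant of the family per length (141 CPM per kb of exon), stood at 926, 842, 622, 812 and 759 CPM in dorsal libraries and 1215, 1036, 1166, 913 and 999 CPM in ventral ones. The groups overlapped only by Dorsal replicate 1, which stood above Ventral replicate 4. Its log2 fold change of -0.43 ± 0.11 had an adjusted p of 0.0144 and was below the fold threshold. Hnrnpdl also had an adjusted p below 0.05 in this direction (-0.32 ± 0.11, 0.0396). Hnrnpu, a large nuclear scaffold protein, was the one hnRNP gene with an adjusted p below 0.05 in the dorsal direction, at 598 to 718 CPM in dorsal libraries and 418 to 580 CPM in ventral ones without overlap (0.34 ± 0.10, 0.0236). Hnrnpd, next in level per length after Hnrnpa2b1 and Hnrnpa0 at 67.6 CPM per kb, was at 485 ± 39.9 CPM and 509 ± 46.8 CPM (SD, n = 5 each) and did not pass (-0.07 ± 0.09, adjusted p = 0.617). The remaining 14 hnRNP genes had adjusted p-values above 0.05, and most reads of Hnrnpf cannot be placed with certainty, since 61.9% of its 50-base windows occur in other genes.

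The SR proteins gave no call in edgeR or DESeq2. All 11 were tested, their log2 fold changes ran from -0.36 to 0.49 with a median of -0.06, and 2 (18.2%) had an adjusted p below 0.05, both higher in dorsal libraries. The unadjusted p was below 0.05 for 3 in the dorsal and 1 in the ventral direction. Srsf9 was at 33.1 to 41.0 CPM in dorsal libraries and 22.5 to 30.5 CPM in ventral ones, without overlap (0.49 ± 0.14, adjusted p = 0.0171). Srsf11 was at 125 to 275 CPM in dorsal libraries and 139 to 151 CPM in ventral ones (0.48 ± 0.17, 0.0423), and without Dorsal replicate 1, its lowest dorsal library, it passed the fold threshold as well. Averaged over both groups, the most abundant SR genes per length were Srsf5 (72.0 CPM per kb), Srsf1 (58.6 CPM per kb) and Srsf7 (29.1 CPM per kb), although in dorsal libraries Srsf10 stood level with Srsf7 (25.8 and 25.5 CPM per kb). Srsf1, the founding member of the family, was at 328 ± 19.0 CPM (SD, n = 5) in dorsal and 341 ± 45.8 CPM (n = 5) in ventral libraries, with an interval of 2 standard errors from -0.26 to 0.15. Srsf5 was at 277 ± 14.6 CPM and 297 ± 44.2 CPM (interval -0.31 to 0.11), and Srsf7 at 90.6 ± 12.1 CPM and 116 ± 19.0 CPM (-0.36 ± 0.13, adjusted p = 0.0573). Summed over the family the level was 1483 to 1608 CPM in dorsal libraries and 1341 to 1633 CPM in ventral ones.

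Of the 6 core companions, Khdrbs1 (Sam68, ENSMUSG00000028790, chr4:129703164-129742303, minus strand), a KH-domain protein that links signalling to splicing, was called ventral-enriched. It stood at 59.1, 52.6, 36.2, 49.7 and 42.4 CPM in dorsal libraries and 78.5, 55.6, 91.9, 79.0 and 60.2 CPM in ventral ones, and the groups overlapped through Ventral replicate 2. Its log2 fold change was -0.61 ± 0.17 (adjusted p = 0.0172). The log2 ratio for the threshold was -0.60, and the call was lost with DESeq2 or its size factors, the stricter filter or protein-coding genes alone (-0.58), and without Dorsal replicate 3 or 5 or Ventral replicate 1, 3 or 4 (-0.58 to -0.51). Ptbp3 was higher in dorsal libraries without passing the fold threshold (0.45 ± 0.13, 0.0202). Elavl1, Srrm1 and Srrm2 had adjusted p-values of 0.328, 0.170 and 0.411. Ptbp1, the repressor of neuronal exons that neurons silence, was low, at 4.64 ± 1.09 CPM and 4.62 ± 1.24 CPM, with an interval of 2 standard errors from -0.59 to 0.60.

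**Figure D2:**
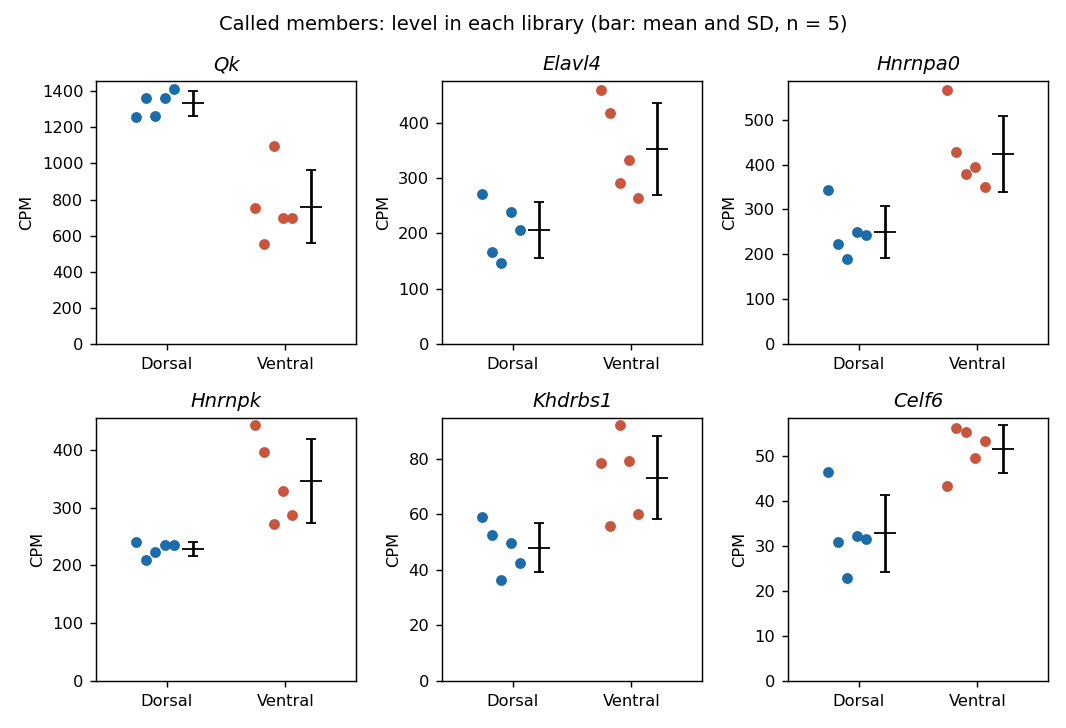
Each panel plots the CPM of 1 called gene in the 5 dorsal (blue) and 5 ventral (red) libraries on a vertical axis from 0, with the mean and SD as a bar beside the points. Qk, Hnrnpa0 and Hnrnpk do not overlap between the groups, while Elavl4, Khdrbs1 and Celf6 overlap by single libraries.

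Among the neuronal genes, Elavl4 (HuD, ENSMUSG00000028546, chr4:110203722-110351909, minus strand), a Hu protein of differentiated neurons, had the lowest log2 fold change of all members. It stood at 271, 167, 147, 239 and 205 CPM in dorsal libraries and 459, 417, 290, 333 and 263 CPM in ventral ones. Dorsal replicate 1 lay above Ventral replicate 5, and otherwise the groups were separate. The log2 fold change was -0.78 ± 0.19 (adjusted p = 0.00834), and the gene was called with each of the 10 libraries left out (-0.89 to -0.66). Its paralogues were not called. Elavl2 was at 412 ± 98.0 CPM and 520 ± 127 CPM (-0.34 ± 0.18, adjusted p = 0.186), and Elavl3 at 323 ± 26.7 CPM and 319 ± 17.5 CPM, with an interval of 2 standard errors from -0.16 to 0.19. Per length Elavl4 made up 26.0% of the Elavl transcripts in dorsal and 35.3% in ventral libraries, and Elavl3 31.8% and 25%. The log2 count ratio of Elavl4 to Elavl3, which does not depend on the scaling of the libraries, was -0.68 ± 0.40 (SD, n = 5) in dorsal and 0.11 ± 0.32 (n = 5) in ventral libraries. The exact permutation test (two-sided) gave p = 0.0159, and the ratio did not pass after adjustment over the 8 ratios tested (0.127). With libraries paired by replicate number, an exact sign-flip test gave p = 0.0625, the lowest it can give with 5 pairs.

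The Celf proteins, which bind GU-rich RNA, held genes on both sides. Celf6 (ENSMUSG00000032297, chr9:59577917-59607292, plus strand) stood at 46.4, 30.8, 22.8, 32.2 and 31.6 CPM in dorsal libraries and 43.3, 56.1, 55.4, 49.5 and 53.2 CPM in ventral ones. Dorsal replicate 1 was the one dorsal library inside the ventral range. The log2 fold change was -0.65 ± 0.17 (adjusted p = 0.0129), and the call was lost without Dorsal replicate 3 (-0.54) and after the correction for GC content and exonic length (-0.49). Celf2 stood at 1461, 1198, 1152, 1314 and 1247 CPM in dorsal libraries and 893, 996, 963, 784 and 847 CPM in ventral ones. Every dorsal library lay above every ventral one. The log2 fold change was 0.51 ± 0.09 (adjusted p = 0.00201), below the threshold of 0.58. Celf4 was the most abundant neuronal member per length (113 CPM per kb), at 906 ± 80.0 CPM and 1026 ± 123 CPM (-0.18 ± 0.10, adjusted p = 0.193). Celf5 was at 399 ± 17.4 CPM and 354 ± 102 CPM (0.17 ± 0.15, 0.432), and Celf3 at 74.9 ± 23.4 CPM and 62.2 ± 9.08 CPM (0.27 ± 0.21, 0.346).

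Rbfox1, the Rbfox gene with the highest level per length (72.2 CPM per kb), stood at 377, 324, 364, 373 and 371 CPM in dorsal libraries and 305, 265, 255, 263 and 279 CPM in ventral ones. The groups did not overlap, and the log2 fold change of 0.40 ± 0.09 had an adjusted p of 0.00429 without reaching the fold threshold. Rbfox2, which many tissues express, was at 291 ± 28.5 CPM and 253 ± 36.5 CPM (0.20 ± 0.11, adjusted p = 0.190). Rbfox3, whose product is the antigen NeuN that marks most neurons, was at 163 ± 48.3 CPM and 164 ± 21.2 CPM (-0.01 ± 0.20, 0.983), and Dorsal replicate 1 stood apart at 78.9 CPM. The log2 ratio of Rbfox1 to Rbfox3 was 0.47 higher in dorsal libraries (exact permutation p = 0.0794, adjusted over the 8 ratios 0.175).

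Nova1 and Nova2 were expressed at like levels per length (14.4 and 13.7 CPM per kb). Nova1 was at 127 ± 8.58 CPM in dorsal libraries and 125 ± 17.3 CPM in ventral ones, and Nova2 at 117 ± 4.19 CPM and 112 ± 14.0 CPM. They had log2 fold changes of 0.03 ± 0.11 and 0.07 ± 0.10 (adjusted p = 0.879 and 0.643). Of the 50-base windows of Nova2 30.8% occur in other genes. Ptbp2 was at 150 ± 15.3 CPM and 167 ± 32.4 CPM (-0.16 ± 0.13, 0.394). In every library Ptbp2 counts exceeded Ptbp1 counts, by 20.1 to 62.9 times without regard to length. Khdrbs3 (T-STAR) and Khdrbs2, which act on the exons of neurexin genes, differed widely in level, at 70.5 and 1.56 CPM per kb. Khdrbs3 was at 235 ± 24.3 CPM and 281 ± 31.7 CPM (-0.26 ± 0.11, adjusted p = 0.0835). Khdrbs2 had a large estimate with a large error (0.65 ± 0.35, 0.177), from 13.4 to 35.5 CPM in dorsal libraries and 7.77 to 23.8 CPM in ventral ones. Without Ventral replicate 2 it was called dorsal-enriched (1.0, adjusted p = 0.0275), and without Dorsal replicate 2 its log2 fold change was 0.32. Srrm4 was at 57.3 ± 15.0 CPM and 50.0 ± 10.7 CPM (0.20 ± 0.19, 0.476) and Srrm3 at 10.1 ± 4.48 CPM and 12.8 ± 4.23 CPM (-0.34 ± 0.30, 0.421). The remaining ratios between paralogues did not pass either, with adjusted values over the 8 ratios from 0.175 to 0.857.

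**Figure D3:**
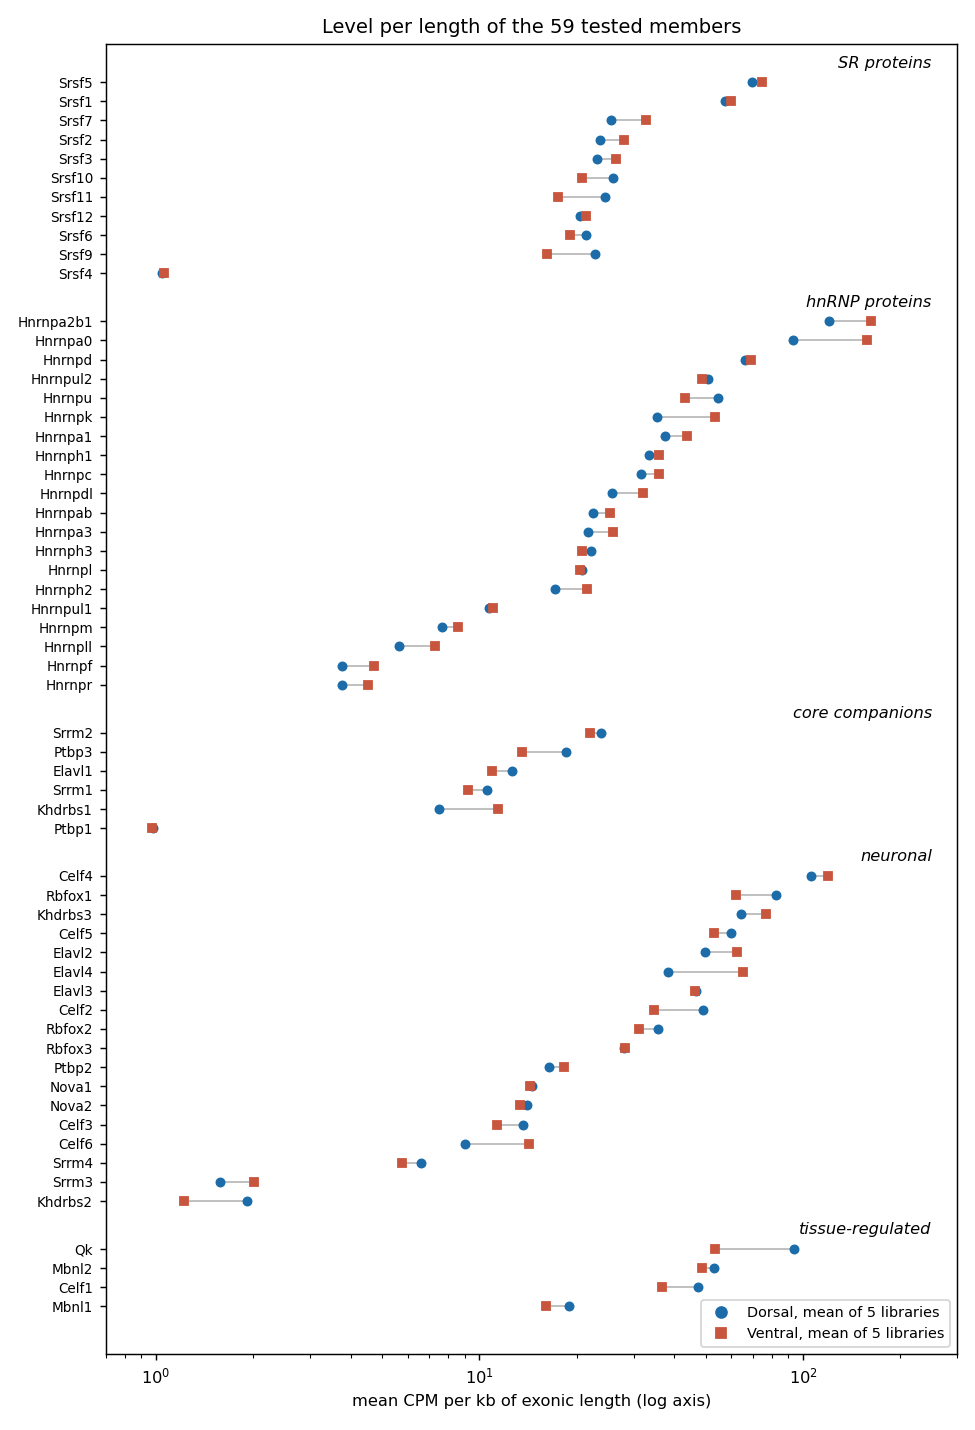
The plot gives the mean CPM per kb of exonic length of the 59 tested members on a log axis, as a blue circle for the 5 dorsal and a red square for the 5 ventral libraries, in blocks by role. Hnrnpa2b1, Hnrnpa0 and Celf4 have the highest levels, above 100 CPM per kb on average, and Srsf4, Ptbp1, Khdrbs2 and Srrm3 the lowest, under 2 CPM per kb.

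Qk (quaking, ENSMUSG00000062078, chr17:10202601-10319854, minus strand) was the only member called dorsal-enriched. Its product is a KH-domain protein of the STAR family known above all from glia, where it is needed for myelin mRNAs. Qk stood at 1256, 1364, 1265, 1362 and 1413 CPM in dorsal libraries and 754, 557, 1098, 697 and 701 CPM in ventral ones. Every dorsal library lay above every ventral one, and Ventral replicate 3 lay nearest to the dorsal group. The log2 fold change was 0.81 ± 0.14 (adjusted p = 0.00166), a ratio of means of 1.75, and the gene was called with each of the 10 libraries left out (0.71 to 0.97). The other tissue-regulated genes were not called. Celf1 was at 400 ± 64.3 CPM and 309 ± 14.3 CPM without overlap (0.37 ± 0.11, 0.0209), Mbnl1 at 353 ± 37.7 CPM and 301 ± 63.4 CPM (0.23 ± 0.13, 0.211) and Mbnl2 at 636 ± 88.5 CPM and 586 ± 82.6 CPM (0.12 ± 0.12, 0.487).

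Glial markers and nuclear-retained RNAs moved with Qk. Among the 8 oligodendrocyte markers 8 had estimates above 0 and 4 were called dorsal-enriched, among them Mobp (0.85). Of the 8 astrocyte markers 6 had estimates above 0, 3 were called dorsal-enriched, among them Slc1a2 (1.03) and Aqp4 (0.81), and Aldh1l1 was called ventral-enriched. Of the 5 nuclear-retained RNAs 4 were called dorsal-enriched, with Malat1 at 2.51. No gene of these 3 lists was at 0 in all libraries. Within the ventral group, replicate 3 had the highest Qk level and also the highest oligodendrocyte (1748 CPM), astrocyte (1457 CPM) and nuclear-retained (5105 CPM) sums, and replicate 2 had the lowest Qk level and the lowest oligodendrocyte (911 CPM) and astrocyte (857 CPM) sums. The order of libraries was not shared throughout, as Ventral replicate 1 had the lowest nuclear-retained sum (2476 CPM) and the second highest ventral Qk level, and Dorsal replicate 3 had the highest astrocyte sum (2249 CPM) and the second lowest dorsal Qk level. The part of these RNAs in the Qk result was not tested.

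**Figure D4:**
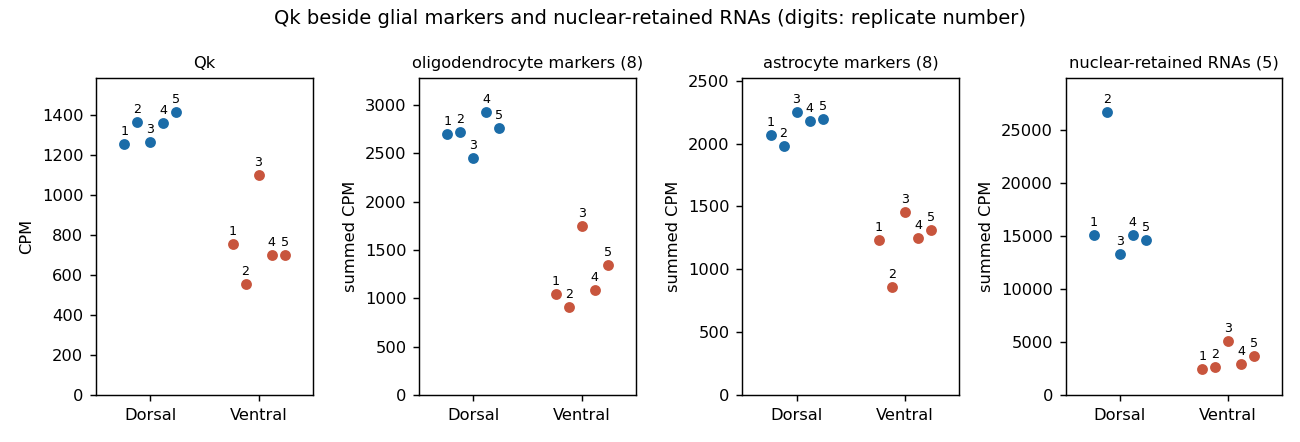
The panels plot, for each dorsal (blue) and ventral (red) library with its replicate number, the CPM of Qk and the summed CPM of 8 oligodendrocyte markers, 8 astrocyte markers and 5 nuclear-retained RNAs, on axes from 0. In all 4 panels the dorsal libraries lie above the ventral ones, and Ventral replicate 3 is the highest ventral library.

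GC content and exonic length moved with the fold changes. When a smooth trend of each library on both was removed, the median of all tested genes went from -0.01 to -0.13, and the members called went from 1 dorsal and 5 ventral to 0 dorsal (10.8% of all tested genes) and 12 ventral (20.3% of members, against 13.4% of all tested genes and 18.0% of protein-coding genes above 20 CPM). Relative to the shifted median of all tested genes, the medians were then -0.13 for core genes, 0.10 for neuronal genes and -0.33 for hnRNP genes, and -0.09 for all tested protein-coding genes above 20 CPM. The values of single genes that follow include that shift. Qk kept its direction and an adjusted p of 0.00855 but fell below the fold threshold (0.46), and Elavl4 reached -1.48. Nova1 went from 0.03 to -0.79 (adjusted p = 0.000287), and Hnrnpa2b1 (-0.70), Elavl2 (-0.72), Ptbp2 (-0.63) and Srsf7 (-0.64) also became ventral calls.

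**Figure D5:**
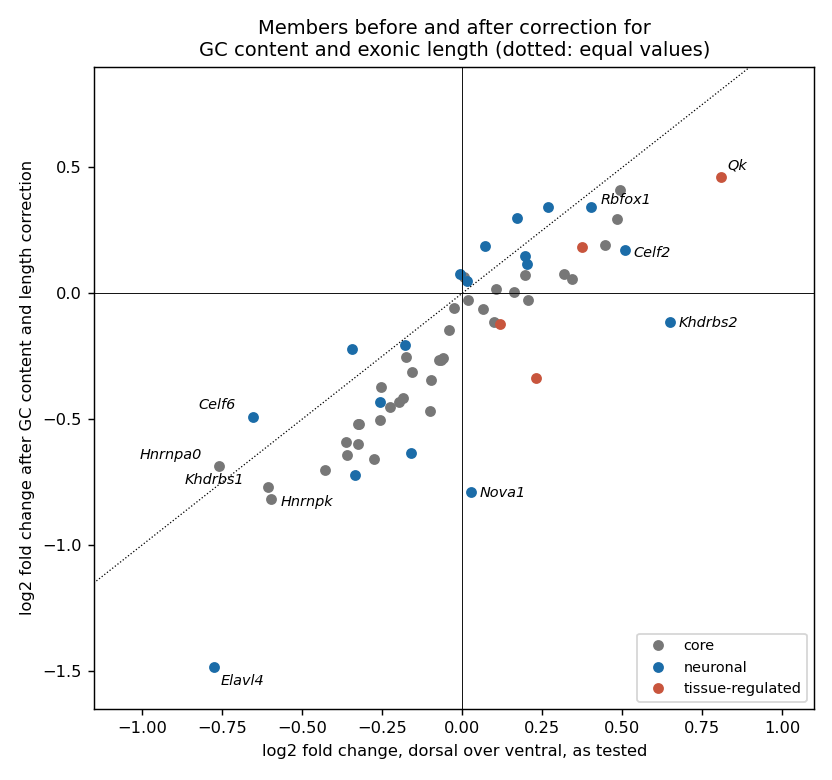
Each point is 1 of the 59 tested members, with the log2 fold change of dorsal over ventral as tested on the horizontal axis and after correction for GC content and exonic length on the vertical axis, coloured by class, and the dotted line marks equal values. Most points lie below the line, Elavl4 and Nova1 far below it, and Qk remains the highest at 0.46.

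Further genes of the splicing machinery and other RNA-binding proteins held 14 calls, 11 of them ventral. Of these 103 genes 102 were tested, and 3 (dorsal) and 11 (ventral) were called. The set includes 23 cytoplasmic RNA-binding proteins of neurons, which hold 3 of the ventral calls. Together these were 13.7%, against 21.6% of all tested genes and 16.8% of tested protein-coding genes above 20 CPM. Ventral calls made up 8.38% of all tested genes. Estimates lay below 0 for 59 of the 102, and for 3698 of 6559 tested protein-coding genes above 20 CPM. Among the proteins of the snRNPs, the particles built on the small nuclear RNAs, 1 of 12 was called, Snrpd2 (-0.78 ± 0.17, adjusted p = 0.00427). Of the 12, 10 had estimates below 0, and the median was -0.26. Among the factors that recognise the branch site and the end of the intron, U2af1 (-0.61) and Sf3b4 (-0.67) were called out of 14, and 12 of 14 had estimates below 0 with a median of -0.41. Of 20 factors of the tri-snRNP and the catalytic spliceosome, Prpf19 (-1.03), Prpf8 (-0.70), Prpf3 (-0.70) and Bud31 were called ventral-enriched, with a median of -0.07. Prpf19, a ubiquitin ligase of the active spliceosome, was at 39.1 ± 3.56 CPM in dorsal libraries and 79.9 ± 14.4 CPM in ventral ones. Of the 7 kinases that phosphorylate SR proteins, Clk1 was called dorsal-enriched (0.96 ± 0.20), with 79.6 ± 22.6 CPM and 40.9 ± 6.76 CPM, and Clk3 ventral-enriched (-0.81 ± 0.24).

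Among the SR-related and other nuclear RNA-binding proteins 2 of 26 (7.69%, against 13.2% of all tested genes) were called dorsal-enriched, Luc7l2 (0.79 ± 0.13, 547 ± 67.6 CPM and 317 ± 52.8 CPM) and Tia1 (0.72 ± 0.21), and the median of the list was 0.15. Of the exonic bases of Luc7l2 18.9% are shared with another annotated gene. Of 23 cytoplasmic RNA-binding proteins of neurons, Pcbp3 (-0.83 ± 0.16), Pcbp4 (-0.73 ± 0.23) and Cpeb2 (-0.67 ± 0.14) were called ventral-enriched, with a median of 0.03. After the correction for GC content and exonic length, 0 of the 102 genes were dorsal calls and 19 (18.6%) were ventral calls, a share near that of protein-coding genes above 20 CPM under the same correction (18.0%).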

How the data were processed

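Ribosome-bound RNA was amplified with the Ovation kit, and TruSeq libraries were sequenced as paired ends of 50 bases. The authors aligned the reads to GRCm38 with STAR 2.5.2b and counted them with HTSeq 0.7.2. They deposited raw counts, whole numbers for each Ensembl gene. The annotation release and strand setting are not given in the sources used here, so genes that overlap on either strand remain uncertain. GENCODE M21 matched 54809 of 54838 identifiers.

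The tests were run on these counts with edgeR 4.0.16 under R 4.3.3: CPM above 1 in at least 2 libraries, TMM, the quasi-likelihood test without covariates and Benjamini-Hochberg adjustment over all 16806 genes. Calls required an adjusted p below 0.05 and a log2 ratio of mean CPM plus 1 (pseudocount 1) above 0.58 in size. The standard error was derived from the F statistic as the log2 fold change over √F. The quasi-likelihood dispersions of edgeR 3 were chosen after the files were seen. On simulated data for this comparison (16065 genes, 198 changed 2-fold) they gave 6 false calls against 15 with those of edgeR 4. They recovered fewer of the changed genes, 47.5% against 52.0% with the dispersions of edgeR 4. Of the changed genes above 20 CPM they recovered 84%. At these depths 3 counts are 0.146 to 0.269 CPM, which covers counting error only. Paralogue ratios were compared by exact permutation over libraries and, paired by replicate number, by an exact sign-flip test. Shared windows are 50-base stretches of a gene's transcripts also found in other genes' transcripts.

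Members and lists were chosen with earlier results of these data known. All members were accounted for: full values were given for every tested neuronal and tissue-regulated gene, every called core gene and the 3 most abundant SR and hnRNP genes per length, and in the further lists called genes were named, at most 3 with values. Hnrnpu, Hnrnpdl, Srsf9, Srsf11 and Ptbp3 were named after their values were seen, for an adjusted p below 0.05, and the remaining core genes named with values for their level or shared reads. Promoter motifs were also chosen after the values were seen. The paper reports 25 mice in all, hippocampi divided into dorsal and ventral parts, and pools of 5 mice. Dorsal and Ventral pools therefore shared mice, which the unpaired main tests did not take into account. Nothing in the labels shows whether pools of equal number share mice, and p-values measure the spread between pools. The alternatives were other scalings and filters, DESeq2 1.42.0, other fold rules, the replicate number as a block, and corrections for GC content and length (mgcv 1.9.3). Further ones were protein-coding genes alone, the share of read pairs on no gene as a covariate, and each library left out. With that covariate the fold threshold was applied to edgeR's log2 fold change.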

Additional observations from a re-analysis of the deposited data

Results flagged for a closer look

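In 11 of the 118 groups of 5 libraries (59 genes, Dorsal and Ventral) a single library lay farther from the rest than Dixon's 95% limit for 5 values, where chance flags about 1 group in 20. Of these libraries 6 were Dorsal replicate 2, with Srsf6 at 111 CPM, Hnrnpm at 76.0 CPM, Hnrnpu at 718 CPM, Khdrbs2 at 35.5 CPM and Srrm3 at 17.9 CPM, each the highest dorsal value, and Rbfox1 at 324 CPM, the lowest. The same library had the highest sum of nuclear-retained RNAs (26666 CPM), and the part of this in the 6 values was not tested. Dorsal replicate 1 was the highest for Hnrnpdl (157 CPM) and the lowest for Rbfox3 (78.9 CPM, where the other dorsal libraries began at 170 CPM). Ventral replicate 1 was the highest for Srsf12 (73.2 CPM) and Hnrnpc (212 CPM), and Ventral replicate 3 for Srsf2 (117 CPM). None of the 6 called genes was among them.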

How the results depend on the processing

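Elavl4 and Hnrnpa0 were called under every alternative except the covariate for read pairs on no gene, Qk under all but that covariate and both fits with the GC content and length correction. The members called (1 dorsal, 5 ventral) were 8 and 7 without a fold threshold, 2 and 5 with the replicate block, 0 and 12 after the GC content and length correction with or without the block, 2 and 0 with the covariate, and 3 ventral with DESeq2, its size factors, the stricter filter or protein-coding genes alone. With a library left out they were 1 to 2 and 2 to 5. Core calls (0 and 3) were 4 and 5 without a fold threshold, 8 ventral after correction, 0 ventral with the covariate, 1 ventral under the same 4 settings, and 0 to 1 and 1 to 3 with a library left out. Neuronal calls (0 and 2) were 2 dorsal without a fold threshold, 1 dorsal with the replicate block (Khdrbs2, adjusted p = 0.0355), 4 ventral after correction, 2 dorsal and 0 ventral with the covariate, and 0 to 1 and 1 to 2 with a library left out. Related list genes (3 and 11) were 12 dorsal without a fold threshold, 0 dorsal and 19 ventral after correction (20 with the block), 1 and 2 with the covariate, and 2 to 5 and 7 to 13 with a library left out. Over all genes the 2217 dorsal and 1408 ventral calls became 2636 and 1655 with the dispersions of edgeR 4, 1810 and 2260 after correction and 620 and 248 with the covariate. The core median log2 fold change was -0.26 after correction, with or without the block, and 0.018 with the covariate. The replicate block rests on replicate numbers, and correlations did not show that these pair the pools. Same-numbered libraries had correlations of -0.032 to 0.069, and 2 of 5 were highest with their own number. The block changed no other call of the genes named by the rule.

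Signs reversed with the covariate for Celf3 (-0.54), Celf4 (0.069), Elavl2 (0.45), Elavl4 (0.045), Srsf7 (0.0050) and Hnrnpd (0.064). After correction, alone and with the block, they reversed for Khdrbs2 (-0.11, -0.029), Nova1 (-0.79, -0.79), Mbnl1 (-0.34, -0.32), Mbnl2 (-0.12, -0.12) and Rbfox3 (0.077, 0.071). Rbfox3 was also positive with DESeq2's size factors (0.020), library totals (0.017), the stricter filter (0.015), DESeq2 (0.019) and protein-coding genes alone (0.019). With a library left out the ranges were -0.0055 to 0.061 for Elavl3, -0.031 to 0.092 for Nova1 and -0.082 to 0.17 for Rbfox3. Of the paralogue ratios, the Nova1 to Nova2 log2 ratio was -0.97 and the Elavl4 to Elavl3 log2 ratio -1.53 after correction, both then past the adjusted threshold, and the Mbnl1 to Mbnl2 log2 ratio was -0.20. With a library left out the Nova1 to Nova2 log2 ratio ran from -0.13 to 0.091 and the Ptbp2 to Ptbp1 log2 ratio from -0.37 to 0.047. The cause was not tested for any of these. At 5 pools a group, a 2-fold change below 20 CPM was often missed on simulated data.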
